A study of Homo sapiens with 28 samples.

Results

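The 10 genes described here encode inflammatory and angiostatic chemokines: CXCL1, CXCL2, CXCL3, CXCL5, CXCL8, CXCL10, CXCL16, CCL2, CCL5 and CCL20. They were chosen by name, and are 10 of the 19775 genes that had a probe set with 1 gene symbol on the array. Together they had 17 such probe sets, of which CXCL2, CXCL5 and CCL5 had 3 each, CXCL8 had 2 and the other 6 genes had 1 each. A gene's level is that of its brightest probe set. In the human genome CXCL1, CXCL2, CXCL3, CXCL5, CXCL8 and CXCL10 lie on chromosome 4, CXCL16, CCL2 and CCL5 on chromosome 17 and CCL20 on chromosome 2.

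The study measured which expression changes accompany resistance of renal cell carcinoma to inhibitors of the VEGF receptor tyrosine kinases, in 28 subcutaneous xenograft tumours of 2 human renal carcinoma cell lines. In 786-O there were 5 sorafenib-resistant and 5 untreated tumours in a sorafenib arm, and 4 sunitinib-resistant and 5 untreated tumours in a sunitinib arm. In A498 there were 5 sorafenib-resistant and 4 untreated tumours. The hosts were female athymic nude/beige mice, 6 to 8 weeks old at injection, which lack thymus-derived T cells and have impaired natural killer cells but keep macrophages, neutrophils, fibroblasts and endothelium of their own. Mice of the treated groups received 80 mg/kg sorafenib, a blocker of VEGF receptors, PDGF receptors and RAF kinases, or 53.6 mg/kg sunitinib, a blocker of VEGF receptors, PDGF receptors and KIT. Gavage took place on 6 days of each week once a tumour measured 12 mm across. Tumours were excised at that diameter before treatment or at 20 mm, the permitted limit, and the labels do not state the size of each untreated tumour or a time on treatment. Both lines lack a working VHL protein, and each line comes from 1 tumour.

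RNA from snap-frozen tumours was hybridised to 1-colour arrays of human probes, some of which may also capture RNA of the mouse host. After the authors' scaling, the 2% trimmed mean of the deposited signals lay between 500.06 and 500.07 on each array, and array medians lay between 79.7 and 99.4. Of 6 markers of the carcinoma lines on the array, 6 had a group median above the limit of the filter (a signal of 89.4) in every group, and of 7 T and natural killer cell markers 0 did. A gene was tested when it lay above that limit on at least 4 of 28 arrays, which held for 13808 genes and all 10 chemokines. CXCL5 lay above it on 7 arrays, CCL5 on 18 and CXCL10 on 20, and the other 7 chemokines on all 28. Each difference was taken between mean log2(signal + 16) values, where the added constant shrinks the change of dim genes, and is given ± standard error. A gene is called at a limma p under 0.05 after Benjamini-Hochberg adjustment over the 13808 genes. Whether each tumour grew in a separate mouse is not in the labels. The p-values therefore reflect only the spread between these samples, and the 4 or 5 tumours per group limit the precision. A number at the start of the sample titles is shared by A498 and the 786-O sunitinib arm and differs in the 786-O sorafenib arm, so untreated A498 tumours were set against untreated 786-O tumours of the sunitinib arm.

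Chemokines are small secreted proteins that draw leukocytes along a gradient by binding G protein-coupled receptors. CXC chemokines that carry the glutamate-leucine-arginine motif ahead of the first cysteines (CXCL1, CXCL2, CXCL3, CXCL5 and CXCL8) bind CXCR2, attract neutrophils and promote the growth of blood vessels, while CXCL10 lacks the motif, is induced by interferon and is angiostatic. CCL2, CCL5 and CCL20 attract monocytes, T cells and other CCR-bearing cells, and in renal carcinoma CXCL8 has been studied as a vessel-promoting signal that does not need VEGF.

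In 786-O tumours resistant to sorafenib, CCL2 and CXCL5 fell and 0 of the 10 chemokines rose, where 9.18% of all genes fell and 5.97% rose. In 786-O tumours resistant to sunitinib, 0 chemokines passed the test in either direction, where 2.22% of all genes rose and 2.84% fell. At an unadjusted p under 0.05 there were 2 of the 10, beside 18.7% of all genes. In A498 tumours resistant to sorafenib, 0 passed, where 2.93% of all genes rose and 3.4% fell, and 1 of the 10 had an unadjusted p under 0.05, beside 21.0% of all genes. The median difference of the 10 genes was -0.003, -0.07 and 0.04 in the 3 arms in that order, beside medians over all genes tested of -0.05, -0.01 and 0.03. With arrays centred on their median, the medians of the 10 genes turned to 0.09 in the 786-O sorafenib arm and -0.05 in A498 and stood at -0.007 in the sunitinib arm, beside 0.04, -0.07 and 0.05 over all genes. In the 786-O sorafenib arm CCL2 was the 1 of 10 without overlap between resistant and untreated tumours, where 12.5% of all genes had none. In the sunitinib arm and in A498, 8.46% and 9.14% of all genes had groups without overlap, and 0 of the 10 chemokines did.

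Between the untreated lines 5 of the 10 chemokines differed. Untreated A498 tumours had higher CCL2, CXCL2 and CXCL16 than untreated 786-O tumours and lower CXCL5 and CCL5, so that 3 of 10 chemokines were higher and 2 lower, where 27.3% of all genes were higher and 30.6% lower. Of the 10, 4 had no overlap between these groups (CCL2, CXCL2, CXCL16 and CXCL5), beside 47.4% of all genes. CXCL5 and CCL5 passed the filter only through 786-O, the line where they are high. Their line differences are therefore no separate support for a difference of the chemokines between lines. With no filter on low values both were still called (limma adjusted p 0.0001 for CXCL5 and 0.00199 for CCL5). Between untreated 786-O tumours of the sorafenib and the sunitinib arm 0 chemokines passed, where 0.275% of all genes were called. At an unadjusted p under 0.05 there was 1 of the 10 (CXCL16, -0.73 ± 0.27), beside 13.2% of all genes.

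**Figure D1:**
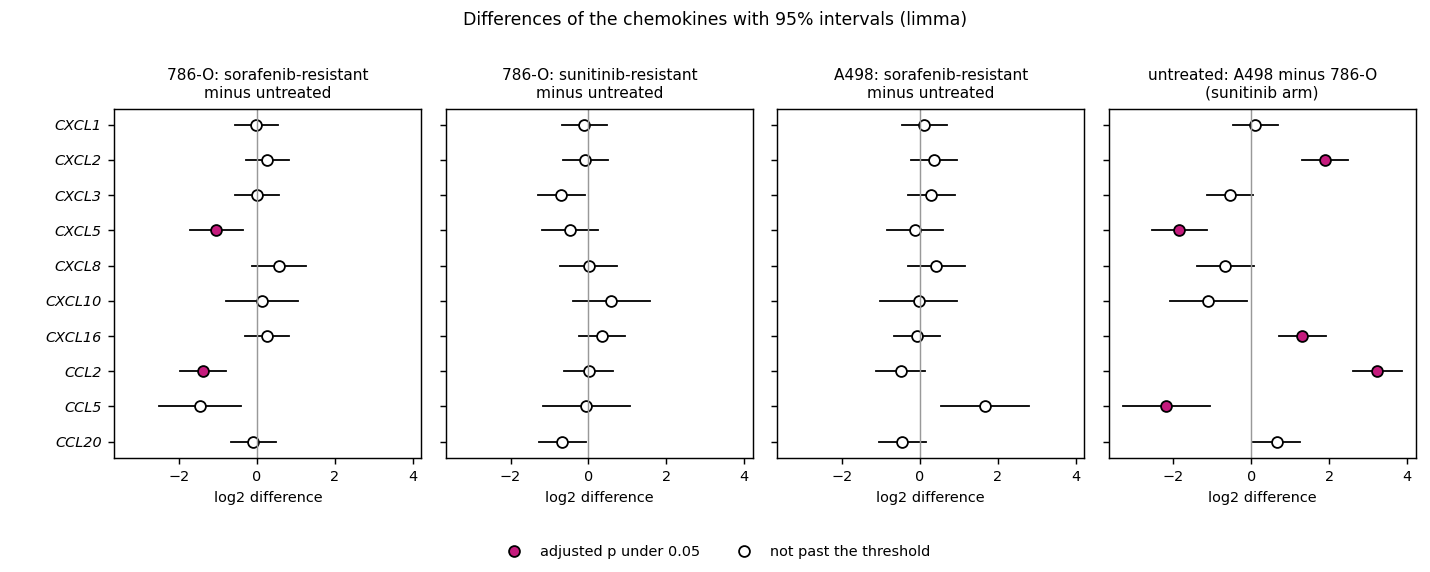
Log2 differences (x axis) of the 10 chemokines (y axis) with 95% intervals from limma, for resistant minus untreated tumours in the 3 arms and for untreated A498 minus untreated 786-O tumours of the sunitinib arm. Filled points have an adjusted p under 0.05: CCL2 and CXCL5 in the 786-O sorafenib arm, and CCL2, CXCL2, CXCL16, CXCL5 and CCL5 between the lines.

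The promoters of the 5 neutrophil-attracting CXC chemokines share a site for NF-kappaB, the transcription factor that inflammatory cytokines activate. Promoter sequences, from 250 bases before to 50 bases after the gene's start (RefSeq, GRCh38.p14), were at hand for 7 of the 10 genes, and CXCL16, CCL2 and CCL5 are named here without a sequence. The letters GGAATTTCC, searched on both strands, occurred in 162 of 35116 promoters (0.461%) and in 6 of the 7: CXCL1, CXCL2, CXCL3, CXCL5, CXCL8 and CXCL10. The windows of the 5 CXCR2 ligands are shown because they hold the same letters at nearly the same distance from the start, beginning at position -77 from the start in CXCL2, -78 in CXCL1 and CXCL3, -90 in CXCL5 and -91 in CXCL8. Capitals mark the site, with its flanking G and C where these complete the palindrome, and each sequence reads along the gene's strand.
CXCL1, chr4:73869278-73869337, plus strand: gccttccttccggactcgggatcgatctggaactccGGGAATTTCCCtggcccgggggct
CXCL2, chr4:74099251-74099310, minus strand: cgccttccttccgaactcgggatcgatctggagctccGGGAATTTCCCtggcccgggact
CXCL3, chr4:74038745-74038804, minus strand: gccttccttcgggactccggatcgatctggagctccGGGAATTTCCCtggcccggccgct
CXCL5, chr4:73998733-73998792, minus strand: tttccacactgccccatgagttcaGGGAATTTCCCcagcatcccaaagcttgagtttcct
CXCL8, chr4:73740454-73740513, plus strand: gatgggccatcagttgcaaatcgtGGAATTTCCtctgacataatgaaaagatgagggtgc

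Lined up on the site over 50 bases without gaps, CXCL1 and CXCL2 were identical at 47 bases (94%), CXCL1 and CXCL3 at 45 (90%), and CXCL2 and CXCL3 at 45 (90%). CXCL5 and CXCL8 matched these 3 and each other at 17 to 24 of the 50 bases. A match of letters is a description of the reference sequence and no measurement of binding in these tumours.

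CXCL8, the interleukin that draws neutrophils and the best studied vessel-promoting chemokine, was bright in every tumour. Its signals were 7461, 5974, 4919, 7110 and 9198 in sorafenib-resistant 786-O tumours, against 3792, 3756, 2941, 4874 and 10015 in untreated ones. Of the 5 untreated tumours, 4 lay below the lowest resistant tumour and 1 lay above the highest. The difference was 0.56 ± 0.33 (95% interval -0.13 to 1.25) with a limma adjusted p of 0.286, so it was not called. Sunitinib-resistant tumours had signals of 5890, 9059, 5248 and 4018, against 8384, 4367, 7638, 6346 and 3612 in untreated tumours of that arm, a difference of 0.005 ± 0.36. The groups covered much of each other's range. In A498 the signals were 5589, 10440.2, 4413, 2713 and 3909 in resistant and 2259, 4256, 3863 and 4663 in untreated tumours (0.42 ± 0.36, adjusted p 0.536). The probe set used, 202859_x_at, is of a kind that the manufacturer marks as open to related transcripts. The other probe set of CXCL8, 211506_s_at, gave 0.53 ± 0.31, 0.26 ± 0.33 and 0.26 ± 0.33 in the 786-O sorafenib, 786-O sunitinib and A498 arms, none of them called over the 26924 probe sets tested.

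CXCL1, a CXCR2 ligand also known as a growth factor for melanoma cells, had the narrowest range of group means of the 10. Its group means spanned 0.43 on the log2 scale, with resistant A498 tumours highest (11.69 ± 0.61, SD, n = 5) and sorafenib-resistant 786-O tumours lowest (11.26 ± 0.25, SD, n = 5), and 0 of the 5 steps between neighbouring groups exceeded the larger SD of the pair. Resistant minus untreated differences were -0.01 ± 0.26 in the 786-O sorafenib arm, -0.11 ± 0.28 in the sunitinib arm and 0.11 ± 0.28 in A498. Their 95% intervals stayed within -0.68 and 0.69.

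CXCL2, a CXCR2 ligand close in sequence to CXCL1 and CXCL3, separated the lines. Its signals in untreated A498 tumours were 3315, 2692, 3418 and 4158, against 1069.8, 789, 1242, 966 and 575 in untreated 786-O tumours of the sunitinib arm. The lowest A498 tumour lay above the highest 786-O tumour, and the difference was 1.88 ± 0.29 (a ratio of 3.69, adjusted p 3.5e-06 by limma). Resistant A498 tumours spread more widely, at 7611, 5491, 2217, 2898 and 5635, and on both sides of the untreated A498 range (0.36 ± 0.29). In 786-O the differences were 0.27 ± 0.27 with sorafenib and -0.08 ± 0.29 with sunitinib. The probe set used, 209774_x_at, is of the kind the manufacturer marks as open to related transcripts, so CXCL1 and CXCL3 RNA may bind it. A dimmer probe set without that mark, 1569203_at, also gave higher values in untreated A498 than in untreated 786-O tumours (1.25 ± 0.48, adjusted p 0.0306 over probe sets), and gave -0.90 ± 0.45 (adjusted p 0.214) in the 786-O sorafenib arm, where the brightest one gave 0.27. It lay above the filter limit in all 5 resistant and all 4 untreated A498 tumours, and passed the filter through this line, where it is high. Above the limit were also 1 of 5 untreated 786-O tumours in each arm and 0 of 5 sorafenib-resistant ones. Its values are therefore no separate support for the line difference, and its sorafenib difference lies mostly below the limit. The remaining probe set of CXCL2, 230101_at, was too dim to be tested. It gave -0.39 in the 786-O sorafenib arm, -0.33 in the sunitinib arm, 0.17 in A498 and 0.32 between the untreated lines.

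CXCL3, the third of these close relatives, lay between signals of 99.6 and 462 in all 28 tumours. With sunitinib it was 173, 282, 165 and 99.6 in resistant and 462, 256, 309, 242 and 207 in untreated tumours. Of the 4 resistant tumours, 3 were below the lowest untreated one, and the difference of -0.69 ± 0.29 had an adjusted p of 0.182. The difference was 0.008 ± 0.27 with sorafenib in 786-O and 0.29 ± 0.29 in A498.

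CXCL5, a neutrophil attractant that activates CXCR2, was dim and line-dependent. In 786-O the signals were 49.4, 40.3, 34.9, 54.3 and 41.5 in sorafenib-resistant tumours, against 48.7, 92.9, 158, 116 and 156 in untreated ones. The 5 resistant tumours lay below the filter limit of 89.4, and 4 of 5 untreated tumours above it, with 1 untreated tumour inside the resistant range. These 4 tumours were among the 7 arrays above the limit, and CXCL5 would not have passed the filter without them. It was thus tested only through the group in which it is high. With no filter on low values its limma adjusted p was 0.0488. The fall was -1.04 ± 0.33 (adjusted p 0.0317), and it was no longer called with a pseudocount of 1 (adjusted p 0.217), without the 2 arrays that had the highest ACTB 3-prime minus 5-prime difference (adjusted p 0.105), or in 6 of the 10 fits that left out 1 tumour (adjusted p up to 0.0866). Those 6 tumours were untreated replicates 3, 4 and 5 and resistant replicates 2, 3 and 5. In the sunitinib arm the signals were 110, 43.1, 49.1 and 33.6 in resistant and 137, 59.7, 83.4, 92.02 and 53.8 in untreated tumours (-0.47 ± 0.35, adjusted p 0.504). Of the 4 resistant tumours 3 were below the untreated range and 1 within it. In A498 the highest of 9 tumours had a signal of 33.0, below the limit, and untreated A498 tumours were lower than untreated 786-O tumours by -1.85 ± 0.35 (adjusted p 5.89e-05) without overlap. The 7 arrays above the limit were thus all of 786-O, and CXCL5 passed the filter only through the line where it is high. With A498 below the limit, the size of the line difference depends on the added constant. The brightest probe set of CXCL5, 214974_x_at, carries the same manufacturer's mark as that of CXCL2, as open to related transcripts. The other probe sets of CXCL5, 215101_s_at and 207852_at, were too dim to be tested. Their differences were 0.03 and -0.67 in the 786-O sorafenib arm, and -1.20 and -0.19 between the untreated lines.

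**Figure D2:**
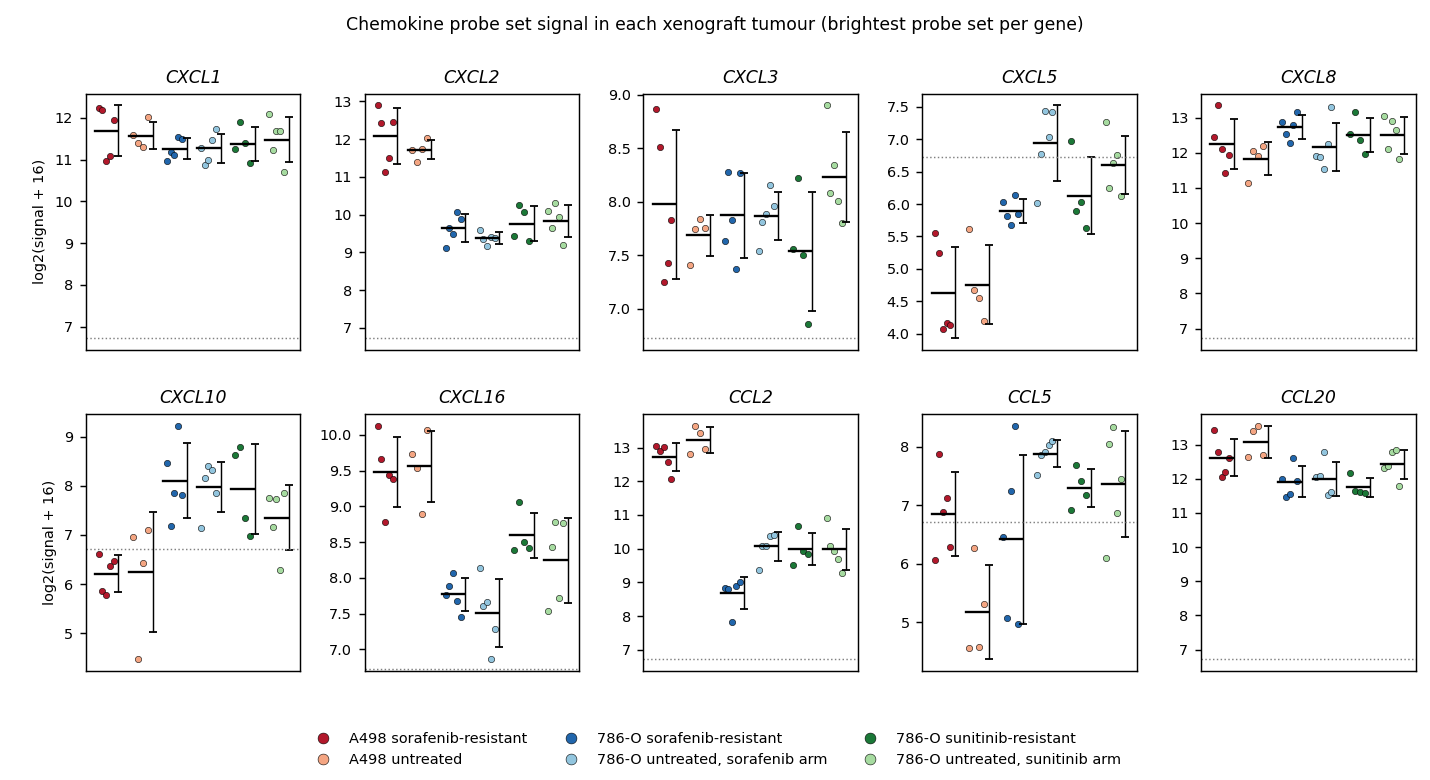
Log2(signal + 16) of each chemokine's brightest probe set (y axis, own scale per gene) in each of 28 tumours (points), by group. Horizontal bars are group means, vertical bars are SDs, and the dotted line is the filter limit of 6.72. CCL2 separates both the lines and, in the 786-O sorafenib arm, resistant from untreated tumours, while CXCL1 has nearly level group means.

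CXCL10, the angiostatic ligand of CXCR3 that interferon gamma induces, passed the test in none of the 3 arms. Its promoter holds an element that interferon-activated factors bind (GAAANNGAA, on either strand in 8.11% of promoters and in 3 of the 7 available here: CXCL10, CXCL2 and CXCL3) and matches to the wider NF-kappaB consensus, which occurred in 11.3% of promoters and in 6 of the 7 (not in CXCL8). The capitals mark the interferon element first and then the NF-kappaB matches.
CXCL10, chr4:76023598-76023737, minus strand: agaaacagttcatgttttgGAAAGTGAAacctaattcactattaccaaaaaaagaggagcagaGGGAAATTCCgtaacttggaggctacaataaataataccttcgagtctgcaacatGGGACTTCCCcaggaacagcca

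CXCL10 signals were 337, 129, 214, 579 and 209 in sorafenib-resistant 786-O tumours, against 125, 268, 322, 302 and 215 in untreated ones. The resistant tumours held the highest value and covered nearly all of the untreated range (0.13 ± 0.45, adjusted p 0.887). Sunitinib-resistant tumours had 380, 426, 147 and 110, and untreated tumours 199, 127, 196, 62.0 and 214. Here 2 of 4 resistant tumours lay above the highest untreated one, with a difference of 0.58 ± 0.48 (adjusted p 0.566). In A498 the signals were 81.1, 41.8, 39.0, 66.3 and 72.7 in resistant and 109, 6.18, 70.3 and 121 in untreated tumours (-0.03 ± 0.48). Untreated A498 tumours were lower than untreated 786-O tumours of the sunitinib arm by -1.11 ± 0.48 with an adjusted p of 0.0510, just outside the threshold, and by -1.73 with an adjusted p of 0.00314 when set against untreated 786-O tumours of the sorafenib arm.

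CXCL16, a transmembrane chemokine that binds CXCR6 and scavenges oxidised lipoprotein until the protease ADAM10 sheds it, differed between the lines. Untreated A498 tumours had signals of 832, 728, 459 and 1061, against 169, 328, 422, 194 and 421 in untreated 786-O tumours of the sunitinib arm. The ranges touched nowhere, and the difference was 1.31 ± 0.29 (a ratio of 2.49, adjusted p 0.000367). Resistant minus untreated tumours gave differences of 0.26 ± 0.27 in the 786-O sorafenib arm, 0.35 ± 0.29 in the sunitinib arm and -0.08 ± 0.29 in A498, none of them called. ADAM10 fell in the 786-O sorafenib arm (-0.34 ± 0.11, adjusted p 0.0362), a call lost when arrays were centred on their median (adjusted p 0.152).

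CCL2, the ligand of CCR2 that recruits monocytes, had the widest range of group means of the 10, 4.54 on the log2 scale, and the steps between neighbouring groups exceeded the larger SD at 3 of 5 places. In 786-O its signals were 444, 429, 211, 459.9 and 504 in sorafenib-resistant tumours, against 640.1, 1066, 1067, 1325 and 1349 in untreated tumours. Each resistant tumour lay below each untreated one. The fall was -1.39 ± 0.29 (95% interval -1.98 to -0.80, a ratio of 0.382, adjusted p 0.00146 by limma), and in the 10 alternative settings that keep its 1 probe set, and in the 10 fits that left out 1 tumour, the fall lay between -1.56 and -1.17 and was called each time.

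In sunitinib-resistant 786-O tumours CCL2 signals were 720.3, 1607, 955 and 905, against 1920.4, 1059, 969, 819 and 599 in untreated ones. The resistant tumours lay inside the untreated range, and the difference was 0.009 ± 0.30 (95% interval -0.62 to 0.64). The difference between the sorafenib and sunitinib arms of 786-O was -1.40 ± 0.42, with an unadjusted limma p of 0.00266 and an adjusted p of 0.105. It passed the threshold (adjusted p 0.0461) without 1 tumour, untreated replicate 1 of the sunitinib arm, whose signal of 1920.4 was the highest of its group. Of the 10 chemokines 0 were called for this difference between arms, where 0.949% of all genes were.

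In A498 CCL2 was among the bright signals: 8528, 7591, 8326, 6081 and 4305 in resistant and 7215, 12786, 11085 and 7988 in untreated tumours. Resistant and untreated tumours overlapped between 7215 and 8528, and the difference was -0.49 ± 0.30 (adjusted p 0.373). Untreated A498 tumours exceeded untreated 786-O tumours of the sunitinib arm by 3.24 ± 0.30 (a ratio of 9.43, adjusted p 1.44e-09), the largest line difference among the 10. The sorafenib difference of A498 minus that of 786-O was 0.90 ± 0.42, with an adjusted p of 0.223.

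Among markers of fibroblasts and pericytes, collagen chains fell beside CCL2 in the 786-O sorafenib arm. Of 8 such markers 6 were tested, 0 rose and 3 fell, where 9.18% of all genes fell. Those 3 were the collagen chains COL1A1 (-1.64 ± 0.34), COL1A2 (-1.83 ± 0.27) and COL3A1 (-1.93 ± 0.30), and the other tested markers were not called. The signals of the 8 were added up on the linear scale, so the brightest markers weigh most. The sum was 2657 to 4563 in resistant tumours and 6887 to 10317 in untreated tumours, with no overlap. Of the 8, 6 had a median above the filter limit in both groups. Untreated 786-O tumours of the sorafenib arm also differed from those of the sunitinib arm, with a median of 0.60 over the 6 tested markers. The median over all genes was 0.03, and 0 of the 6 were called. In the sunitinib arm 0 of 6 changed and the sums were 3197 to 7136 in resistant and 3797 to 7946 in untreated tumours, and in A498 0 of 6 changed and the sums were 10271 to 24170 in resistant and 6654 to 16002 in untreated tumours. Of macrophage markers, 5 of 10 were tested in the 786-O sorafenib arm and 1 fell (AIF1, -2.33 ± 0.67), with sums of 944 to 1739 in resistant and 836 to 1330 in untreated tumours. Of the 9 macrophage markers on the array 3 had a median above the limit in resistant and 4 in untreated tumours. Of endothelial markers, 2 of 8 were tested and TIE1 fell (-1.70 ± 0.40), with sums of 179 to 433 in resistant and 369 to 465 in untreated tumours. The part of these cells in the fall of CCL2 was not tested, and in bulk tumour RNA fewer cells of a type and less RNA per cell cannot be told apart. Nor can RNA of mouse host cells that binds the human probes be told apart from RNA of the carcinoma cells for these markers.

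CCL5, a chemokine that T cells and macrophages secrete, was the most variable of the 10 within groups and depended on its probe set. On its brightest probe set, 1555759_a_at, signals were 72.0, 17.5, 136, 311 and 15.3 in sorafenib-resistant 786-O tumours, against 166, 216, 226, 246 and 258 in untreated ones. The untreated tumours lay close together, while the resistant ones spread from well below to above them, and the difference of -1.46 ± 0.51 had an adjusted p of 0.0545. It was called in 3 of 10 alternative settings (adjusted p down to 0.0188) and in 2 of the 10 fits that left out 1 tumour, those without resistant replicate 3 or 4 (adjusted p down to 0.00756). In A498 the signals were 50.9, 219.7, 102, 124 and 62.4 in resistant and 7.51, 60.8, 7.86 and 23.6 in untreated tumours. Of the 5 resistant tumours 4 lay above the highest untreated one, and the difference of 1.68 ± 0.54 had an adjusted p of 0.0661. The difference between the lines under sorafenib was 3.14 ± 0.75 (adjusted p 0.0153) and made CCL5 the 1 of 10 called there, where 5.19% of all genes were. All 4 untreated A498 tumours lay below the filter limit on this probe set, so the size of the difference depends on the added constant, and it was 4.25 with a pseudocount of 1 and 1.91 with 64.

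A second probe set of CCL5, 204655_at, gave other values. Its signals were 103, 41.8, 219.5, 255 and 65.1 in sorafenib-resistant 786-O tumours, against 139, 169, 107, 143 and 125 in untreated ones, and 13.3, 37.4, 36.4, 45.1 and 38.2 in resistant A498 tumours, against 56.1, 35.5, 75.9 and 29.5 in untreated ones. The resistant 786-O tumours again spread more widely than the untreated ones, and all 9 A498 tumours lay below the filter limit. The differences were -0.23 ± 0.33 and -0.37 ± 0.35, and the difference between the lines was -0.14 ± 0.48 with an adjusted p of 0.923 over 26924 probe sets. Untreated A498 tumours differed from untreated 786-O tumours of the sunitinib arm by -2.18 ± 0.54 (adjusted p 0.00126) on the brighter and -0.60 ± 0.35 (adjusted p 0.153) on the other probe set. In sunitinib-resistant 786-O tumours the differences were -0.06 ± 0.54 and 0.23 ± 0.35. The remaining probe set, 1405_i_at, was too dim to be tested. Its differences were 0.29 in the 786-O sorafenib arm, 0.99 in the sunitinib arm, 0.07 in A498 and -0.79 between the untreated lines.

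**Figure D3:**
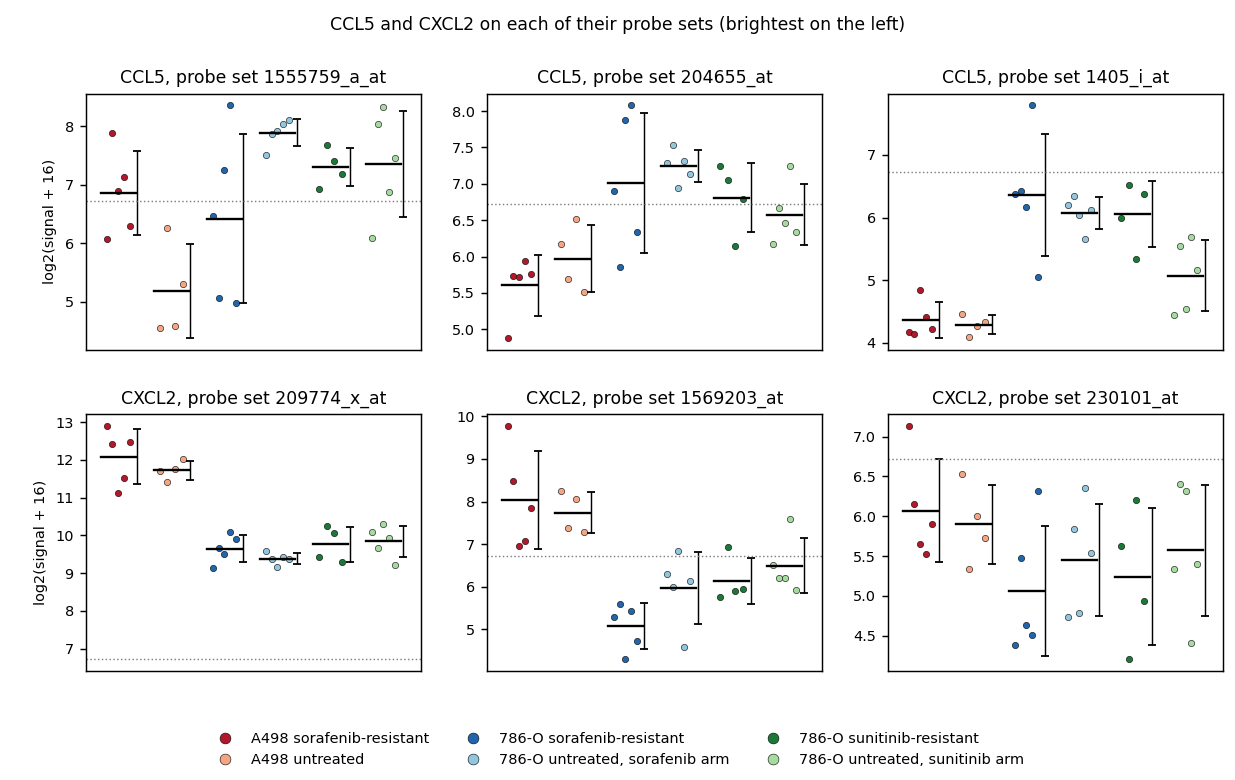
Log2(signal + 16) of the 3 probe sets of CCL5 (top) and of CXCL2 (bottom) in each tumour (points) by group, with group means (horizontal bars), SDs (vertical bars) and the filter limit (dotted line). The higher values of CCL5 in resistant A498 tumours, a difference that was not called, are seen on 1555759_a_at and not on 204655_at, and the higher CXCL2 of A498 tumours is seen on 209774_x_at and 1569203_at.

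CCL20, the ligand of CCR6 on dendritic cells and lymphocytes, was bright in both lines. Its promoter holds a match to the NF-kappaB consensus, shown in capitals, and not the letters that the CXC genes share.
CCL20, chr2:227813732-227813791, plus strand: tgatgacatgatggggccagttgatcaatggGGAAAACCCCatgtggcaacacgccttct
Under sunitinib the signals were 4576, 3183, 3125 and 3066 in resistant and 5106, 5246, 7100.1, 7307 and 3498 in untreated 786-O tumours. Of the 4 resistant tumours 3 lay below the lowest untreated one, and the difference of -0.67 ± 0.29 had an adjusted p of 0.209. It was -0.09 ± 0.28 under sorafenib in 786-O and -0.46 ± 0.29 (adjusted p 0.396) in A498. Untreated A498 tumours had signals of 6364, 10782, 11965 and 6637, higher than untreated 786-O tumours of the sunitinib arm by 0.65 ± 0.29 (adjusted p 0.0608) and, when set against those of the sorafenib arm, by 1.07 (adjusted p 0.00293).

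Tumours of the same group differed more in these chemokines than in most genes. The pooled SD within groups was 0.44 to 0.86 on the log2 scale, with a median of 0.47 over the 10 genes and 0.24 over all 13808, and each of the 10 lay above the median of all genes. CCL5 (0.86, percentile 99.4 of all genes) and CXCL10 (0.76, percentile 98.0) spread most, and CXCL1 least (0.44, percentile 79.4). By mean level CCL5 and CXCL10 lay at percentiles 18.2 and 24.4 of all genes, and CXCL8 (SD 0.56, percentile 89.3 of spread) at percentile 92.4. The part of signal level in these spreads was not tested.

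Ordered by group mean, CCL2 was highest in untreated A498 tumours (13.22 ± 0.39, SD, n = 4) and next in resistant A498 tumours (12.73 ± 0.41, SD, n = 5). Untreated 786-O tumours of the sorafenib arm (10.06 ± 0.43, SD, n = 5), sunitinib-resistant 786-O tumours (9.99 ± 0.48, SD, n = 4) and untreated 786-O tumours of the sunitinib arm (9.98 ± 0.61, SD, n = 5) did not differ beyond their spread, and sorafenib-resistant 786-O tumours were lowest (8.68 ± 0.48, SD, n = 5). For CXCL2, CXCL5 and CXCL16 1 of 5 steps between neighbours exceeded the larger SD, and for CXCL1, CXCL3, CXCL8, CXCL10, CCL5 and CCL20 0 of 5 did.

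Within groups, CXCL1, CXCL2, CXCL3 and CXCL8 varied together from tumour to tumour. With group means subtracted, over 28 tumours that share 1 array design and scaling, Pearson's r was 0.86 for CXCL1 and CXCL2, 0.73 for CXCL1 and CXCL8, 0.71 for CXCL1 and CXCL3, 0.66 for CXCL2 and CXCL3 and 0.62 for CXCL3 and CXCL8. CXCL1, CXCL2 and CXCL3 are close in sequence, and the part of shared hybridisation in these values was not tested. CCL2 varied with CXCL8 (0.59) and CXCL3 (0.52) and against CXCL16 (-0.38), and the highest r of CCL5 with another of the 10 was 0.25, with CXCL16. Among all 13808 genes, the most like CXCL1 after CXCL2 were LINC03068 (0.75) and UGCG (0.74), the most like CXCL8 were RPS25 (0.79), MLF1 (0.74) and ZFP36L1 (0.74), the most like CCL2 were JPX (0.73), LINC00973 (0.71) and PPT1 (0.71), and the most like CXCL10 were PKIB (0.70), ESRRA (0.61) and SCRN2 (0.60). Without the 2 tumours farthest from the median of the chemokine, these 11 values lay between 0.47 and 0.73. The genes were picked as the highest among 13808, and the r that unrelated genes would reach in such a pick was not tested.

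**Figure D4:**
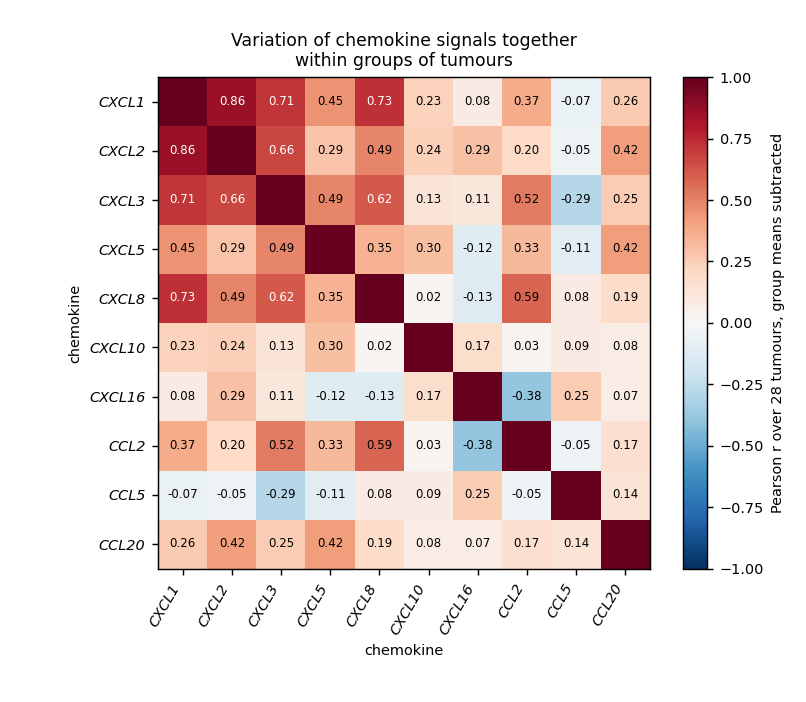
Pearson correlation between each pair of chemokines (both axes) over 28 tumours after subtracting each group's mean, as numbers and colour. The block of CXCL1, CXCL2, CXCL3 and CXCL8 has r of 0.49 to 0.86, while CXCL10 and CCL5 have low values with most others.

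The counts of the lists that follow stand beside the shares of all genes tested that rose and fell. These were 5.97% and 9.18% in the 786-O sorafenib arm, 2.22% and 2.84% in the sunitinib arm, and 2.93% and 3.4% in A498. The lists were chosen with earlier results of these data known. Of the receptors, 6 of 15 on the array were tested. ACKR3, the scavenging receptor of CXCL12, rose in the 786-O sorafenib arm (0.83 ± 0.17) and in the sunitinib arm (0.70 ± 0.18), and CXCR4, the signalling receptor of CXCL12, rose in the sorafenib arm (0.97 ± 0.27), so that 2 of 6, 1 of 6 and, in A498, 0 of 6 rose and 0 fell. Among 4 tested members of the other CXC and CX3C chemokines, CX3CL1, a membrane-bound attractant of monocytes, fell in the 786-O sorafenib (-1.09 ± 0.16) and sunitinib (-0.96 ± 0.17) arms, and CXCL14, an epithelial chemokine, fell in A498 (-1.88 ± 0.49). The line difference of CX3CL1 under sorafenib was 1.29 ± 0.23 (adjusted p 0.00188). Of 2 tested other CC chemokines, CCL28, a mucosal chemokine, fell in the 786-O sorafenib arm (-0.47 ± 0.13), though not with centred arrays (adjusted p 0.0674).

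Of 25 genes of the NF-kappaB pathway and its inflammatory inducers and products 21 were tested. In the 786-O sorafenib arm 6 rose and 0 fell, among them IL6, a cytokine (1.20 ± 0.27), ICAM1, an adhesion molecule (0.88 ± 0.14), TNFAIP3, an inhibitor of the pathway (0.61 ± 0.20), and RELA, a subunit of the factor (0.48 ± 0.12). In the sunitinib arm 4 rose and 0 fell, namely NFKB2 (0.67 ± 0.18), ICAM1 (0.61 ± 0.15), TNFRSF1A (0.58 ± 0.12) and RELA (0.46 ± 0.13), and in A498 IL6 rose (1.27 ± 0.29) and 0 fell. The list's medians were 0.32, 0.03 and 0.006 in these 3 arms, beside medians over all genes of -0.05, -0.01 and 0.03.

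Of 20 interferon pathway genes 18 were tested. In the 786-O sorafenib arm 7 rose, among them RSAD2 (1.20 ± 0.29), ISG15 (1.04 ± 0.16), IFIT3 (0.89 ± 0.16) and OAS1 (0.86 ± 0.15), all induced by interferon, and JAK1, the receptor kinase, named after its values were seen, fell (-0.36 ± 0.10), a call lost with centred arrays (adjusted p 0.0904). With sunitinib 3 rose (RSAD2, ISG15 and IFIT3, the last not called after quantile normalisation, with an adjusted p of 0.0510) and 0 fell, and in A498 0 rose and 2 fell, IFNAR1 (-0.45 ± 0.13) and JAK1 (-0.41 ± 0.10). With centred arrays 9 rose and 0 fell in the 786-O sorafenib arm, 5 rose in the sunitinib arm (with IRF9 and MX1) and 4 fell in A498 (with IRF7 and GBP1). CXCL10, which interferon also induces, differed by 0.13 ± 0.45, 0.58 ± 0.48 and -0.03 ± 0.48 in the same 3 arms. Its own spread allows no statement that it stayed level: the 95% intervals reached from -0.80 to 1.07, from -0.41 to 1.57 and from -1.02 to 0.96.

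Proteases that shed or trim chemokines and regulators of their mRNA were also listed. Of 8 proteases tested, 4 rose and 1 fell in the 786-O sorafenib arm, with MMP1, the interstitial collagenase, at 3.67 ± 0.49, MMP2, a gelatinase, at 0.50 ± 0.15, and MMP14 at 0.49 ± 0.11. MMP2 rose in the sunitinib arm (0.56 ± 0.16, not called after quantile normalisation, with an adjusted p of 0.0704), and 0 changed in A498. Of 6 tested regulators of mRNA stability, ZFP36, which speeds the decay of AU-rich cytokine mRNAs, rose in the 786-O sorafenib (0.71 ± 0.18) and sunitinib (0.65 ± 0.19) arms, and ELAVL1, which stabilises such mRNAs, fell in A498 (-0.29 ± 0.09, not called after quantile normalisation, with an adjusted p of 0.0566).

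**Figure D5:**
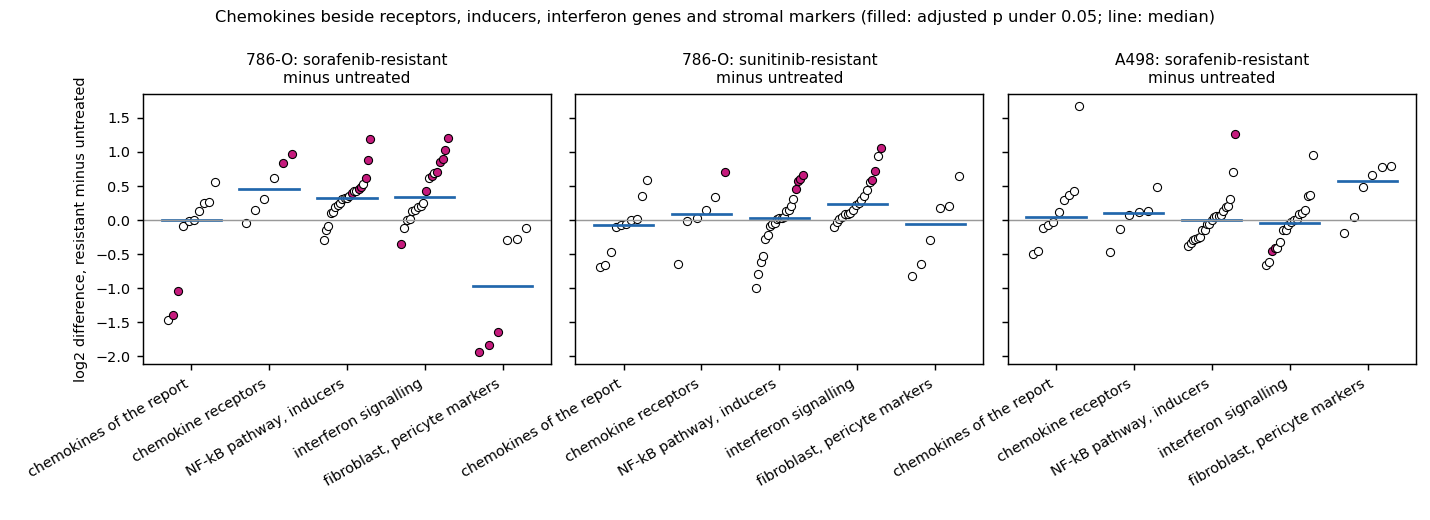
Log2 differences of resistant minus untreated tumours (y axis) for the tested genes of 5 lists (x axis) in the 3 arms, with filled points at an adjusted p under 0.05 and a line at each list's median. In the 786-O sorafenib arm the chemokines have a median of -0.003 with CCL2 and CXCL5 below, the NF-kappaB list a median of 0.32 and the fibroblast and pericyte markers a median of -0.97.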

How the data were processed

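RNA of 28 xenograft tumours was measured on Affymetrix arrays. The values are intensity values: linear probe set signals, as deposited by the authors after a scaling that gave each array an equal trimmed mean. RMA and MAS5 are named, with no role or version, in the submitters' processing notes, and the values have the form that MAS5 scaling gives. Groups came from the labels, and tumours were numbered within groups in accession order.

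Analyses used log2(signal + 16). Among 54675 probe sets, 41091 had 1 gene symbol in the platform annotation, 1801 had several and 11721 had none, and 62 control probe sets were used for RNA quality only. A gene was represented by its brightest probe set, and genes above the median of all values (log2 6.72) on at least 4 arrays were tested. With limma 3.58.1 (R 4.3.3), group means of the 28 arrays were estimated in 1 linear model without covariates, and 7 contrasts were tested with Benjamini-Hochberg adjustment over 13808 genes. The same fit on probe sets covered 26924. The gene fit was tested on simulated data. Of log2 shifts of 0.5 it recovered 26% to 38% in the 3 arms, of shifts of 1 74% to 76%, and of shifts of 2 98%. Small differences can therefore go uncalled. Promoters came from RefSeq (GRCh38.p14).

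All 10 chemokines were named. Of the other lists, at most 4 called genes per list and contrast were to be named, the largest differences first, with the 3 genes most like each of CXCL8, CXCL1, CCL2 and CXCL10. The members and lists were chosen with earlier results of these data known. Alternatives covered the pseudocount, filter, probe set choice, scaling, array weights, arrays in the fit, RNA quality, the untreated 786-O group and leaving out each array. Plots were made in Python 3.11.15 with matplotlib 3.10.9.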

Additional observations from a re-analysis of the deposited data

Results flagged for a closer look

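Among the 60 sets of 1 chemokine in 1 group, 2 held a tumour that stood apart from the rest by Dixon's test, a test for which chance gives about 1 in 20 sets. CCL2 in sorafenib-resistant 786-O tumours was low in replicate 3, with a signal of 211 beside 429 to 504 in the other 4, a gap of 0.811 of the group's whole range. CCL20 in sunitinib-resistant 786-O tumours was high in replicate 1, with a signal of 4576 beside 3066 to 3183 in the other 3, a gap of 0.907 of the range. The difference of CCL5 between sorafenib-resistant and untreated tumours was not the same in the 2 lines. On its brightest probe set it differed by 3.14 on the log2 scale (A498 minus 786-O, limma adjusted p 0.0153), and on its next probe set by -0.14.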

How the results depend on the processing

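No paired analysis was possible because the replicate numbers were given in accession order and tie no tumour to another. Of 734 values under alternatives that kept all replicates or left out the 2 arrays of highest ACTB difference, 705 kept their direction and their side of the threshold or moved by less than their error. A change of sign within 1 standard error, with neither value called, counts among these. In the 786-O sorafenib arm the 2 chemokines called became 1 with a pseudocount of 1, and 1 with the filter at the 75th percentile and with the probe sets of a gene averaged, settings in which CXCL5 was not tested. They became 0 without probe sets whose names end in _s_at, _x_at or _a_at, a setting that by construction leaves out the probe set of CCL2 and the brightest of CXCL5. They became 3 with a pseudocount of 64 and with array weights. Leaving out 1 tumour gave 1 to 3. In A498 the 0 called became 1 (CCL5) with a pseudocount of 1 and without the 2 arrays of highest ACTB difference, and 0 to 1 when 1 tumour was left out. Between the untreated lines the 5 called became 2 without probe sets of these name endings, and 5 to 7 without 1 tumour. They became 4, with 6 chemokines tested, with the filter at the 75th percentile. There were 6 with a pseudocount of 1, quantile normalisation, array weights or only the arrays of the groups compared. There were 7 with centred arrays and without the 2 arrays of highest ACTB difference. The count was also 7 with the untreated 786-O tumours of the sorafenib arm or the mean of both untreated 786-O groups. The difference between the 786-O arms gave 0 to 1 without 1 tumour. The 1 chemokine called for the difference between lines became 0 with the stricter filter, in which CCL5 was not tested, and with the mean of probe sets (0.93, adjusted p 0.29). It also became 0 without probe sets of the name endings above, where CCL5 was read on another probe set and reversed to -0.138. Centring arrays on their median turned the share of higher genes among all called into 62.0% in place of 39.4% (786-O sorafenib), 58.1% in place of 43.8% (786-O sunitinib), 17.9% in place of 46.3% (A498), 36.4% in place of 76.3% (untreated 786-O arms), 64% in place of 46.6% (difference of arms) and 21.2% in place of 58.2% (difference of lines). It moved the median of all genes in the difference of lines to -0.11, against 0.07, and left 2, 0 and 0 chemokines called in the 3 arms. The causes of these changes were not tested. Counts of all genes called ranged in the 786-O sunitinib arm down to 259 of 698 and in A498 down to 185 of 875 with only the arrays of the groups compared, and in the 786-O sorafenib arm down to 1233 of 2092 without the 2 arrays of highest ACTB difference. Signals of CXCL5, and of CCL5 and CXCL10 in part of the tumours, lay below the filter limit, which limits their precision.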
